A study of Mus musculus with 4 samples.

Results

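The semaphorin, plexin, neuropilin, ephrin and Eph genes were examined in E11.5 nasal process (NP) tissues, where they encode contact-dependent and secreted guidance cues and their receptors. Members were taken by symbol from the gene table, and 47 of its 13577 genes matched. These are 19 semaphorins, 2 neuropilins, 8 plexins, 4 ephrin-A genes, 3 ephrin-B genes, 6 EphA genes and 5 EphB genes, or 26 ligands and 21 receptors. A further 6 of the 53 annotated genes of these families, *Efna3*, *Epha1*, *Epha10*, *Epha8*, *Plxnb3* and *Sema3g*, are not among the rows of the table.

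The study asked what elevated BMP/Smad signaling in cranial neural crest cells does to the developing midface of mouse embryos. In bulk RNA-Seq of NP tissues, 2 libraries titled ca-*Acvr1* mutant NP were compared with 2 libraries titled Control NP. The former are called mutant libraries, or the group ca-*Acvr1(A11)*, below. In the mutants, *P0-Cre*, a neural crest Cre driver, turns on a floxed transgene for constitutively activated ACVR1 (line A11), so that it acts in crest-derived cells. In the paper the controls carry *P0-Cre* without the transgene, so the driver is common to both groups. The genotype entries of the libraries contradict their titles, with the transgene entered for the libraries titled control and *P0-Cre* alone for those titled mutant. Groups follow the titles here, and every direction below would turn round if the genotype entries were right. Whether embryos or litters were pooled is not stated in the labels, so p-values measure only the spread between these libraries, which may be technical.

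The QuantSeq 3′ protocol used here collects reads near the poly(A) tail, and read numbers do not grow with transcript length, so that levels of different genes can be set side by side in CPM (reads scaled to the total of a library). Control replicates 1 and 2 held 1956831 and 2252586 reads, and mutant replicates 1 and 2 held 2408827 and 2137027 reads. A single read therefore counts for 0.511 and 0.444 CPM in the control libraries and for 0.415 and 0.468 CPM in the others. All values of the 47 members are whole numbers of reads. *Acvr1* itself was at 21.5 and 23.1 CPM in control versus 24.1 and 12.6 CPM in mutant libraries. These groups overlapped, and since it is not given whether the transgene carries the 3′ end of *Acvr1*, the values do not check the labels.

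As background, semaphorins signal through plexins, and the secreted class 3 semaphorins mostly need a neuropilin as co-receptor. Ephrins are bound to the cell surface and signal to Eph receptor tyrosine kinases on neighbouring cells, with ephrin-A proteins anchored by a lipid and ephrin-B proteins spanning the membrane. Both systems act mainly by repulsion, steer migrating neural crest cells and axons, and keep cell populations apart at tissue boundaries. Loss of ephrin-B1 causes craniofrontonasal syndrome in humans, and mice without EphB2 and EphB3 have cleft palate.

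The receptor genes *Epha4* and *Epha7* were lower in the mutant libraries, and these were the members called by limma on log2(CPM + 1) at an adjusted p under 0.05. Of the 47 members, 45 had a mean above 1 CPM and were tested (*Epha6* and *Sema6b* were not), 2 were called lower and 0 higher. Among all 12462 genes tested, 112 (0.899%) were called in either direction and 74 (0.594%) were called lower. Without the adjustment for multiple testing, 9 of the 45 had a p under 0.05, 3 higher and 6 lower, where 5.42% of all genes were higher and 4.12% lower. The median log2 fold change of the 45 members was −0.03 and that of all genes 0.03, with 22 members higher and 23 lower. The groups did not overlap for 9 members that were higher and 11 that were lower, against 21.9% and 16.8% of all genes.

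*Epha4* (Entrez 13838) encodes a receptor that binds ephrins of both classes and repels growing axons, and it was the most abundant member. It was at 286 and 279.7 CPM in control replicates 1 and 2 (560 and 630 reads) versus 201 and 184 CPM in mutant replicates 1 and 2 (484 and 393 reads). Both control libraries were higher than both mutant libraries, and the distance between the groups was larger than that between replicates. From 283 ± 4.60 to 192 ± 12.0 CPM (SD, n = 2 each), the log2 fold change was −0.56 (standard error [SE] 0.14, adjusted p = 0.0491 from limma), with a ratio of the group means of 0.680. In bulk tissue, fewer cells of a type and less RNA per cell cannot be told apart.

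*Epha7* (Entrez 13841), whose product is a receptor for ephrin-A proteins with a part in neural tube closure, was at 79.7 and 100.3 CPM in the controls versus 57.7 and 47.7 CPM in the mutant libraries. The groups were again apart, although the control replicates differed from each other by nearly as much as the lower of them did from the nearer mutant library. The means were 90.0 ± 14.6 and 52.7 ± 7.05 CPM (SD, n = 2 each), a ratio of 0.586, and the log2 fold change was −0.76 (SE 0.18, adjusted p = 0.0304 from limma).

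Both calls lay close to the threshold. On the recovered reads edgeR's quasi-likelihood test gave adjusted p values of 0.0302 for *Epha4* and 0.0150 for *Epha7* (1.31% of all genes called) and limma-voom gave 0.0285 and 0.0181 (1.24% called), whereas DESeq2 called neither (adjusted p = 0.112 and 0.239, with 0.365% of genes called). Without mutant replicate 1 *Epha4* was not called (adjusted p = 0.140 from limma), without mutant replicate 2 neither was (0.504 and 0.312 from limma), and without control replicate 2 *Epha7* was not (0.245 from limma). Over the 17 alternatives the adjusted p ran from 0.0139 to 0.535 for *Epha4* and from 0.000847 to 0.475 for *Epha7*, with 10 and 12 of them past the threshold, and both genes were lower in each of them.

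**Figure D1:**
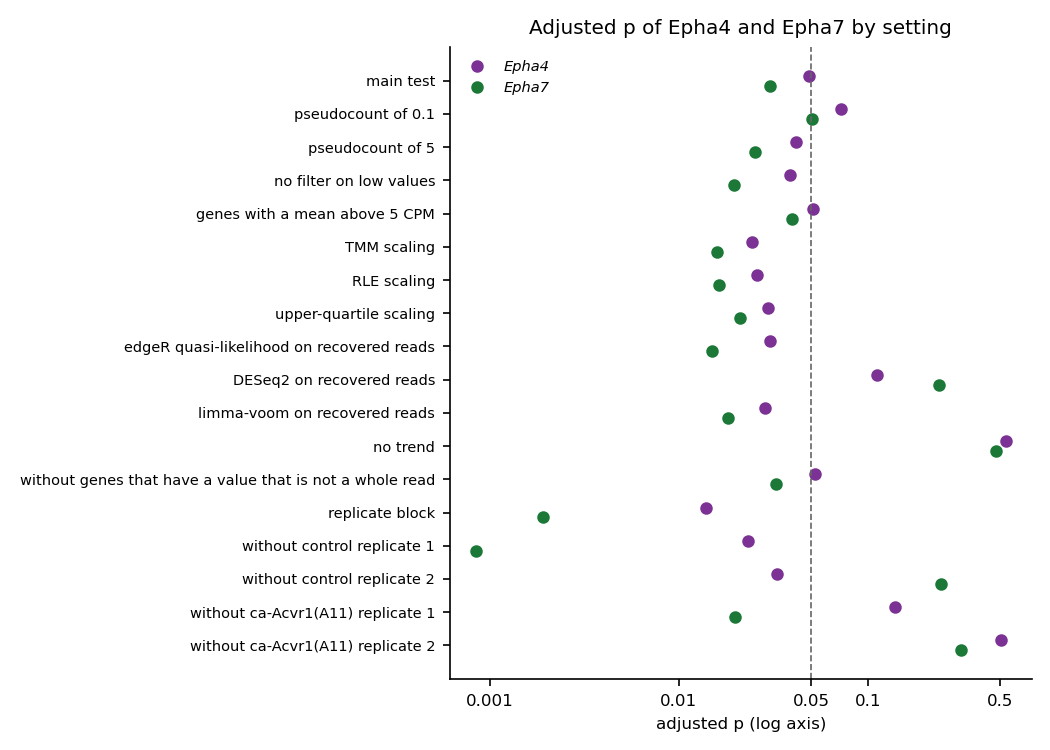
Adjusted p on a log axis for *Epha4* and *Epha7* under the main test and each of 17 alternatives, with the dashed line at 0.05. Points left of the line were called, and the main values, 0.0491 and 0.0304, lie just left of it.

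The start regions of these genes are shown because they are the members that were called lower together. *Epha4* lies on the minus strand of chromosome 1 from 77367185 to 77515088 and *Epha7* on the plus strand of chromosome 4 from 28813131 to 28967499 in GENCODE coordinates of GRCm38. RefSeq promoters (build GRCm38.p6, 250 bases before to 50 bases after the start) were found for 41 of the 47 members. The windows below are chr1:77515039-77515338 on the minus strand and chr4:28812881-28813180 on the plus strand, written 5′ to 3′. Capitals mark the CCAAT box, searched as CCAAT on both strands and read here as ATTGG, a motif known to bind the factor NF-Y.
Epha4: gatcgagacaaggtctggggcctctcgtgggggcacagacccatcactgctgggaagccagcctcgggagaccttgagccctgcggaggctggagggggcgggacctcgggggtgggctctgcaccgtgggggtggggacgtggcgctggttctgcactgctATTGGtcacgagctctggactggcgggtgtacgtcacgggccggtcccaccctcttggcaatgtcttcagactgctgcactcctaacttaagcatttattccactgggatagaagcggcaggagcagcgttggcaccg
Epha7: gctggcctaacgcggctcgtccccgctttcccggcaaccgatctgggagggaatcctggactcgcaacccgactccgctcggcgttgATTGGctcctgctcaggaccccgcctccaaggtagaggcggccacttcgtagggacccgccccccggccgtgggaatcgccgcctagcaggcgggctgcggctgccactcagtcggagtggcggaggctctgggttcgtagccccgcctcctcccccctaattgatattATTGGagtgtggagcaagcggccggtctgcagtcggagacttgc

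The *Epha4* window holds 1 CCAAT box, 88 bases before the start. The *Epha7* window holds 2, the first 163 bases before its start and the second after it. Another *Epha7* start is listed, with the window chr4:28812895-28813194, and there the first of the 2 boxes lies 177 bases before the start. The box was chosen after these sequences had been seen. It occurs in 37.4% of all 32851 promoters in the table and in 17 of the 54 promoters of members (31.5%), and the windows of *Ephb3* and *Epha3* hold 0. GGCGCC, a GC-rich motif that SMAD proteins can bind, is in 11.9% of all promoters and in 11 of the 54 promoters of members (20.4%), and neither *Epha4* nor *Epha7* is among them. These matches describe the letters of the windows and nothing more.

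Among the families, the EphA genes had the lowest median log2 fold change, and most Eph receptors lay in the same direction. Of the 10 Eph genes tested 7 were lower and 3 higher, and their median log2 fold change was −0.38 (between −0.50 and −0.15 with each library left out, and −0.15 without control replicate 2). The 11 Eph genes together summed to 587 and 562 CPM in control versus 428 and 411 CPM in mutant libraries, and neither mutant sum reached a control sum. For the 6 EphA genes alone the sums were 383 and 401 CPM against 272 and 244 CPM, with a median log2 fold change of −0.56 over the 5 tested. That median is the value of *Epha4* itself. *Epha4* and *Epha7* made up most of each sum, those of the 11 Eph genes included. Sums without these genes were not computed. The EphA median was between −0.60 and −0.58 under TMM, RLE and upper-quartile scaling, and with 1 library left out it lay between −0.73 and −0.49.

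*Epha3*, a receptor with high affinity for ephrin-A5, was at 12.8 and 12.4 CPM in control (25 and 28 reads) versus 5.81 and 6.55 CPM in mutant libraries (14 reads each). Its groups were apart and its log2 fold change was −0.92 (SE 0.33), and it was not called (adjusted p = 0.289 from limma). *Epha5*, at 2.56 and 7.55 CPM in control versus 4.57 and 3.74 CPM in mutant libraries, showed only a wide spread of the controls, and the sign of its change turned without control replicate 2 or mutant replicate 2. *Epha2*, the EphA gene with a higher mean in the mutant libraries among those tested, rested on 2 and 2 reads against 5 and 3.

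The EphB genes did not move as a block. *Ephb3*, the most abundant EphB gene, was at 112 and 83.9 CPM in control versus 61.4 and 75.3 CPM in mutant libraries. The groups did not overlap, but the upper mutant value lay closer to control replicate 2 than the controls lay to each other. The log2 fold change was −0.51 (SE 0.18, adjusted p = 0.274 from limma) and only −0.30 without control replicate 1 and −0.36 without mutant replicate 1, while without control replicate 2 the gene was called (−0.72, adjusted p = 0.0294 from limma, in a range over the alternatives from 0.0294 to 1.00). *Ephb1*, known for turning retinal axons back at the optic chiasm, was at 41.9 and 25.3 CPM in control versus 43.6 and 37.9 CPM in mutant libraries, with groups that overlapped and a log2 fold change of 0.31 whose sign turned without control replicate 2. *Ephb2* was at 30.2 and 23.1 CPM against 34.0 and 34.2 CPM, higher in both mutant libraries and not called (log2 fold change 0.36, adjusted p = 0.671 from limma), with changes of 0.54 and 0.17 without control replicate 1 or 2. *Ephb4* and *Ephb6* had log2 fold changes of −0.26 and −0.61 with adjusted p values of 0.843 and 0.745 from limma, and neither size was steady. *Ephb4* ran from −0.46 without control replicate 1 to −0.07 without control replicate 2, and *Ephb6*, on 7 and 15 reads against 4 and 10, overlapped between groups and ran from −1.15 without mutant replicate 2 to −0.06 without mutant replicate 1.

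Among Eph receptor reads, *Epha4* took 48.7% (Wilson 95% interval 45.9% to 51.6%) and 49.8% (47.1% to 52.6%) in control and 46.9% (43.9% to 49.9%) and 44.8% (41.5% to 48.1%) in mutant libraries. Both mutant shares lay below both control shares, while the intervals, which cover counting error only, overlapped in part.

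The ephrins, the ligands of these receptors, summed to 558 and 618 CPM in control versus 539 and 546 CPM in mutant libraries. Of the 7 tested 6 were lower and 1 higher, with a median log2 fold change of −0.12 that depended on single libraries (−0.27 without control replicate 1, −0.01 without control replicate 2 and −0.18 without mutant replicate 1), and limma, edgeR, DESeq2 and limma-voom each called 0 (1 had an unadjusted p under 0.05 from limma). *Efna5*, which guides retinal axons to their targets, was the most abundant ligand at 150.2 and 150.1 CPM in control versus 168 and 172 CPM in mutant libraries. Its replicates lay close together and its groups were apart, yet the difference was small against the spread limma estimates (log2 fold change 0.18, standard error 0.14, adjusted p = 0.773). *Efna2* was at 108 and 139 CPM against 109.6 and 105 CPM, and its groups overlapped.

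All 3 ephrin-B genes had a log2 fold change below 0, under each of the scalings run as well. *Efnb3*, a midline repellent for corticospinal axons, was at 60.8 and 69.3 CPM in control versus 43.2 and 43.5 CPM in mutant libraries. Its mutant values were nearly equal and below both controls, with a ratio of the means of 0.667 and a log2 fold change of −0.57 (SE 0.18), and it was not called (adjusted p = 0.192 from limma, 0.147 from edgeR). *Efnb1*, the X-linked gene of craniofrontonasal syndrome, was at 118 and 117 CPM in control versus 90.5 and 103 CPM in mutant libraries. Its groups were apart as well, with a log2 fold change of −0.28 (SE 0.15, adjusted p = 0.620 from limma) that was −0.18 without mutant replicate 1. *Efnb2*, the arterial ligand of EphB4, was at 72.6 and 95.0 CPM against 84.7 and 72.5 CPM, with overlapping groups and a log2 fold change of −0.08 that changed sign without control replicate 2 or mutant replicate 2.

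**Figure D2:**
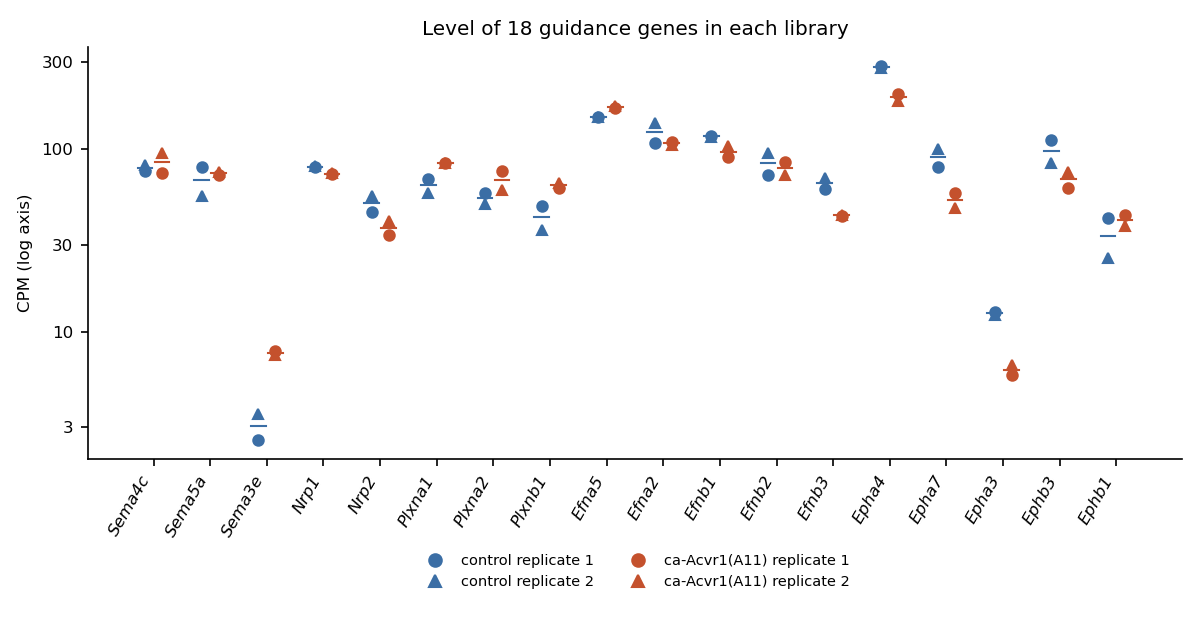
CPM on a log axis of 18 members in each library, ordered by family and then by mean, with a bar at each group mean (n = 2). *Epha4*, *Epha7*, *Epha3*, *Ephb3*, *Efnb1*, *Efnb3*, *Nrp1* and *Nrp2* lie lower in both mutant libraries (red) than in both controls (blue). *Efna5*, *Sema3e*, *Plxna1*, *Plxna2* and *Plxnb1* lie higher. Among all genes tested, the groups were apart in these directions for 16.8% and 21.9%.

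The semaphorins showed no common direction. Their sums were 370.5 and 343 CPM in control versus 358 and 377 CPM in mutant libraries, 11 of the 18 tested were higher and 7 lower (10 and 8 under TMM, RLE and upper-quartile scaling), and the median log2 fold change was 0.06 (0.18 without control replicate 1, 0.01 without control replicate 2 and 0.12 without mutant replicate 2). Both limma and DESeq2 called 0 of them, edgeR and limma-voom called 0 of the 13 they tested, and 1 had an unadjusted p under 0.05 from limma. *Sema4c*, a ligand of plexin-B2, was the most abundant at 76.1 and 81.7 CPM in control versus 74.3 and 95.0 CPM in mutant libraries. *Sema5a*, a membrane semaphorin with thrombospondin repeats, was at 80.2 and 55.0 CPM against 71.8 and 75.3 CPM. For both genes the groups overlapped, and their log2 fold changes were 0.09 and 0.14, with the sign turned without mutant replicate 2 for *Sema4c* and without control replicate 2 for *Sema5a*.

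*Sema3e*, a secreted ligand that binds plexin-D1 without a neuropilin, had the largest increase in log2 fold change of the 45 members and was the semaphorin with an unadjusted p under 0.05. It was at 2.56 and 3.55 CPM in control (5 and 8 reads) versus 7.89 and 7.49 CPM in mutant libraries (19 and 16 reads). Its groups were apart at a low depth, with a ratio of the means of 2.52 and a log2 fold change of 1.11 (SE 0.39) that was not called (adjusted p = 0.285 from limma, 0.275 from edgeR). Its receptor gene *Plxnd1* was at 4.09 and 10.2 CPM in control versus 9.55 and 9.36 CPM in mutant libraries, with the control replicates on either side and a change whose sign turned without control replicate 1.

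*Nrp1* and *Nrp2*, the co-receptors of class 3 semaphorins, were both lower in each mutant library than in each control, and neither was called. *Nrp2* was at 45.5 and 55.5 CPM in control versus 34.0 and 40.2 CPM in mutant libraries, a log2 fold change of −0.43 (SE 0.20, adjusted p = 0.480 from limma). *Nrp1* was at 79.7 and 80.4 CPM against 73.1 and 73.9 CPM, with close replicates and only a small difference, of −0.12 on the log2 scale (SE 0.16, adjusted p = 0.887 from limma). *Sema3a*, the repellent that signals through neuropilin-1, was at 66.4 and 70.6 CPM in control versus 50.2 and 62.7 CPM in mutant libraries (log2 fold change −0.28, adjusted p = 0.681 from limma). Leaving out mutant replicate 1 or 2 moved this to −0.13 or −0.44.

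The plexins lay in the other direction. Of the 8 plexins 7 had a higher and 1 a lower log2 fold change, also under TMM, RLE and upper-quartile scaling, with a median of 0.28, which ran from 0.11 (without control replicate 2) to 0.39 when single libraries were omitted. The sign was not fixed for 5 of the 8, *Plxna3*, *Plxna4*, *Plxnb2*, *Plxnc1* and *Plxnd1*, each of which turned when some library was left out. Their sums were 286 and 234 CPM in control versus 322 and 316 CPM in mutant libraries, so that both mutant sums were above both control sums. With all 4 libraries limma, edgeR, DESeq2 and limma-voom called 0 plexins, and 2 had an unadjusted p under 0.05 from limma.

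*Plxnb1*, the receptor of semaphorin 4D, was at 48.5 and 36.0 CPM in control versus 61.4 and 65.0 CPM in mutant libraries. Both mutant libraries were above both controls, which themselves lay well apart. The log2 fold change was 0.59 (SE 0.19, adjusted p = 0.211 from limma) and 0.37 without control replicate 2, while the gene was called without control replicate 1 (0.80, adjusted p = 0.0133 from limma, in a range over the alternatives from 0.0133 to 1.00). *Plxna1*, which pairs with neuropilins in class 3 semaphorin signaling, was at 69.0 and 57.7 CPM against 83.9 and 84.2 CPM, with a log2 fold change of 0.41 (SE 0.17, adjusted p = 0.413 from limma). Its last kilobase, like that of *Ephb4*, overlaps an annotated gene on the opposite strand. The strand setting of the counting is not given in the sources used here. *Plxna2* was at 57.7 and 50.2 CPM against 75.6 and 59.9 CPM, again with groups apart (log2 fold change 0.32, adjusted p = 0.633 from limma), but at 0.15 without mutant replicate 1 and 0.48 without mutant replicate 2. *Plxnb2*, the plexin with a lower mean in the mutant libraries, was at 55.2 and 42.6 CPM against 44.8 and 41.6 CPM, and the sign of its change turned without control replicate 1.

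**Figure D3:**
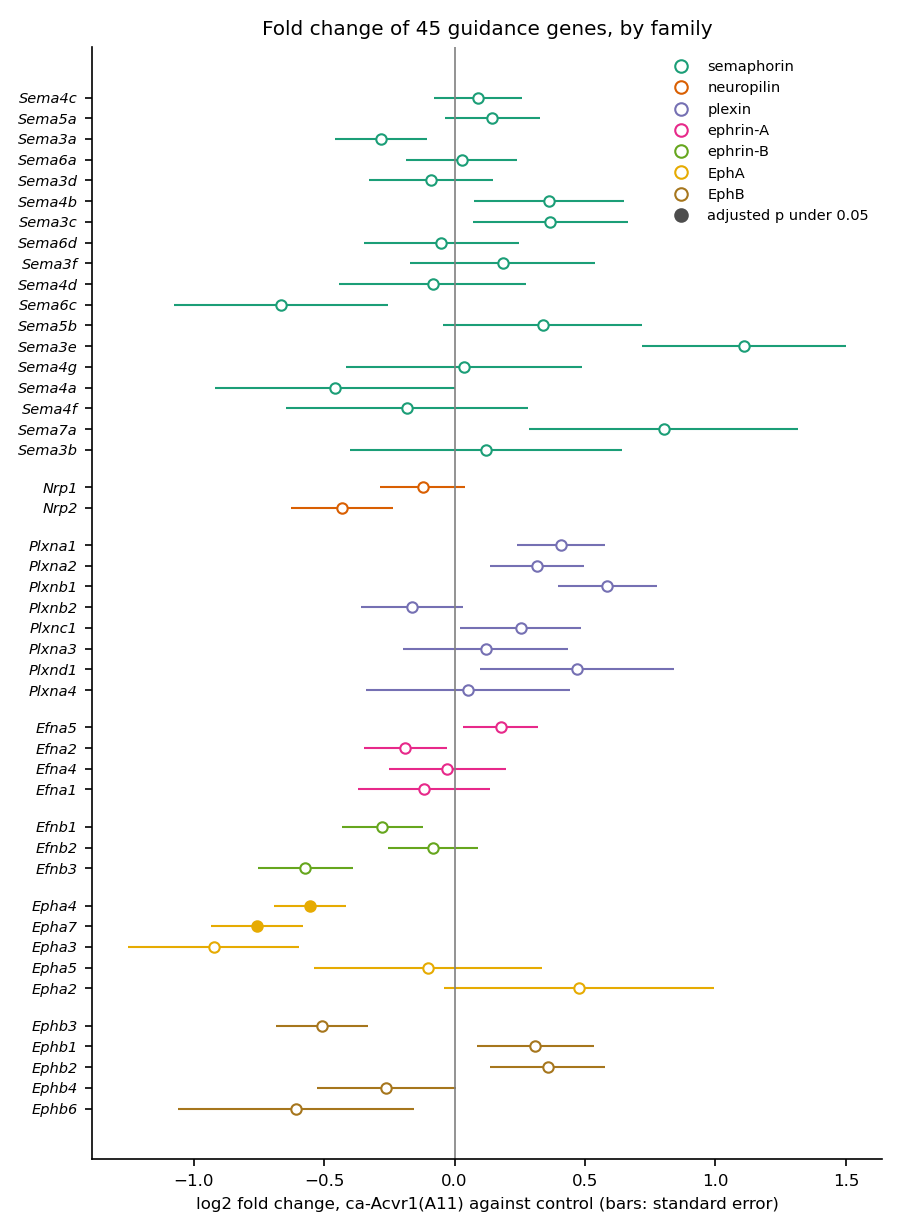
Log2 fold change, ca-*Acvr1(A11)* against control, of the 45 members tested, grouped by family, with bars of 1 standard error from limma. Filled points mark the 2 members called, *Epha4* (−0.56) and *Epha7* (−0.76), and 7 of the 8 plexins lie right of 0.

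Set against each other by role, the 25 ligands tested had a median log2 fold change of −0.03 and the 20 receptors −0.02. Neither sign was fixed, with 0.04 for the ligands when control replicate 1 was omitted, and for the receptors 0.01 when mutant replicate 2 and −0.09 when mutant replicate 1 was. The sums of the 26 ligands were 929 and 962 CPM in control versus 898 and 922 CPM in mutant libraries, and those of the 21 receptors were 999 and 931 CPM against 857 and 841 CPM. The receptor sum joined an Eph sum that was lower in both mutant libraries, a plexin sum that was higher in both, and the neuropilins. Receptors made up 51.3% (Wilson 95% interval 49.2% to 53.3%) and 47.6% (45.7% to 49.5%) of the ephrin and Eph reads in control and 44.3% (42.3% to 46.3%) and 43.0% (40.8% to 45.1%) in mutant libraries. Both mutant shares were below both control shares, although the controls were themselves apart by about as much as control replicate 2 was from the nearer mutant library. The 2 genes called are part of these receptor reads, which numbered 1149 and 1265 in control and 1032 and 878 in mutant libraries. *Epha4* gave 560 and 630 against 484 and 393 of them, and *Epha7* gave 156 and 226 against 139 and 102. The share without these genes was not computed, so it is no separate result on receptors.

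**Figure D4:**
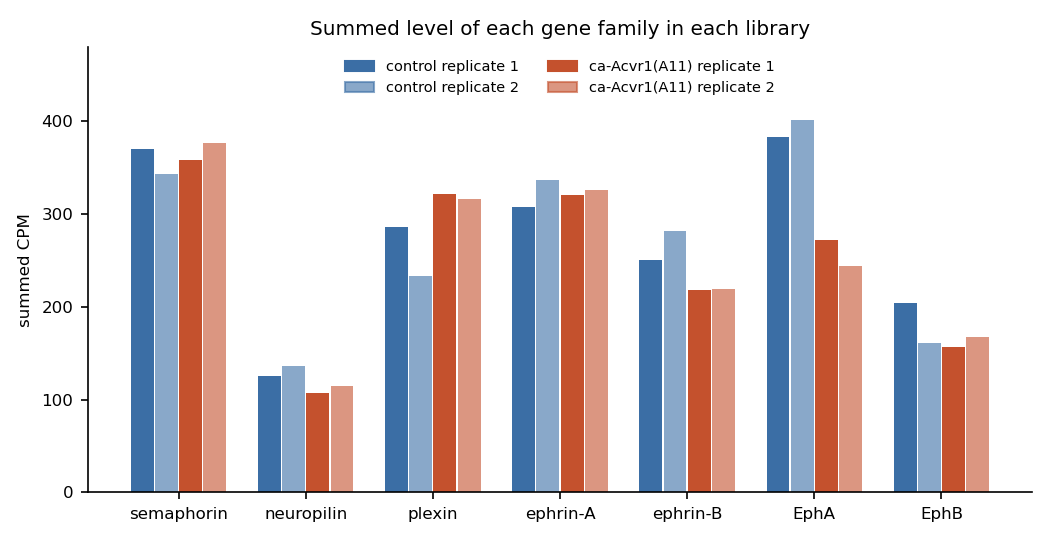
Summed CPM of each family in each library, with control libraries in blue and mutant libraries in red. The EphA sums were 383 and 401 CPM in control versus 272 and 244 CPM in mutant libraries, and the plexin sums were 286 and 234 CPM against 322 and 316 CPM.

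Genes that carry these signals inside the cell were also examined. Tested were 31 semaphorin and plexin transducers (36 in the list) and 31 ephrin and Eph transducers (33 in the list). With all 4 libraries and without a block, limma, edgeR, DESeq2 and limma-voom each called 0 of them. Of the 2 lists, edgeR and limma-voom tested only 29 and 28 genes. With a replicate block limma called 2 of the ephrin and Eph list higher, *Grb7* and *Grip1*, where 229 of all genes were called. Their log2 fold changes were 1.14 and 0.62. With each library left out these ran from 0.74 to 1.53 and from 0.44 to 0.81. At an unadjusted p under 0.05 from limma there were 3 genes of the semaphorin and plexin list and 4 of the ephrin and Eph list, where 9.55% of all genes passed. The medians of the lists were −0.03, which turned to 0.03 without control replicate 1, and 0.06, which was 0.09 or 0.01 with control replicate 1 or 2 left out. The most abundant genes were *Cfl1*, the actin-severing protein cofilin, at 499 and 428 CPM against 425 and 448 CPM, and *Grb10*, an adaptor protein, at 1005 and 986 CPM in control against 980.1 and 949 CPM in mutant libraries.

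Among other guidance ligands and receptors 2 of 23 tested genes (27 in the list) were called, both lower, and the median of the list was 0.01 (between −0.03 and −0.02 under the other scalings, 0.05 without control replicate 2 and 0.06 without mutant replicate 2). *Cxcl12*, the chemokine that attracts cells with the receptor CXCR4, was at 164 and 156 CPM in control versus 76.0 and 76.3 CPM in mutant libraries. The replicates were close and the groups far apart, with a log2 fold change of −1.06 (SE 0.15, adjusted p = 0.000151 from limma). *Flrt2*, a membrane protein that binds UNC5 receptors, was at 219.7 and 249 CPM against 151 and 154 CPM, a log2 fold change of −0.62 (SE 0.14, adjusted p = 0.0271 from limma). *Cxcl12* was called by DESeq2 and with each library left out, and of the 17 alternatives it was lost only without the trend (adjusted p = 0.373 from limma), whereas *Flrt2* was not called by DESeq2 (adjusted p = 0.0689) or without control replicate 2 (0.104 from limma), mutant replicate 1 (0.178) or mutant replicate 2 (0.140), in a range over the alternatives from 0.00130 to 0.485. *Flrt3*, the most abundant gene of the list, was at 213 and 273 CPM in control versus 199.7 and 204 CPM in mutant libraries and was not called.

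Markers of some cell types moved with the groups, and their part in the lower Eph values and the higher plexin values was not tested. Of 15 markers of neural crest mesenchyme, all tested, 10 were called lower and 0 higher by limma, edgeR and limma-voom alike, with a median log2 fold change of −0.78, and DESeq2 called 5, all lower. Their summed level was 3022 and 3482 CPM in control versus 2230.1 and 2225 CPM in mutant libraries. The most abundant, *Vim*, was at 759.9 and 768 CPM against 924 and 867 CPM, and none was at 0. Among the genes called were *Prrx1* and *Prrx2*, homeobox factors of facial mesenchyme, *Twist1* and *Twist2*, and the collagen genes *Col1a1*, *Col1a2* and *Col3a1*, with log2 fold changes from −1.42 (*Prrx2*) to −0.71 (*Col3a1*). Without control replicate 2 *Col3a1* was at −0.43 and *Twist1*, at −0.78 with all libraries, at −0.35.

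Among all 12462 genes tested limma called 38 higher and 74 lower. Of 14 epithelial markers tested (15 in the list) 3 were called higher, *Epcam*, *Cdh1* and *Perp*, with a median of 0.51, sums of 765 and 715 CPM in control versus 1097 and 1081 CPM in mutant libraries, and *Sox2* as the most abundant (455 and 429 CPM against 616 and 633 CPM). The epithelial calls were 3 from edgeR and from limma-voom and 0 from DESeq2, and they did not all hold with each library left out. The log2 fold changes then ran from 0.59 to 0.84 for *Epcam*, 0.60 to 0.97 for *Cdh1* and 0.81 to 1.18 for *Perp*. Of 9 macrophage markers tested (10 in the list) 2 were called higher, *Cx3cr1* and *Mrc1*, with a median of 0.60 (1.23 without mutant replicate 1). Here edgeR called 2, limma-voom 1 and DESeq2 0, and the calls did not all hold with each library left out. The log2 fold changes then ran from 0.85 to 1.23 for *Cx3cr1* and from 1.04 to 1.65 for *Mrc1*. The macrophage sums were 52.1 and 52.8 CPM against 87.2 and 129 CPM. *Cx3cr1* led at 23.0 and 19.5 CPM against 39.0 and 51.0 CPM, and *C1qa* was at 0 in control replicate 1.

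With all 4 libraries and without a block, limma, edgeR, DESeq2 and limma-voom called 0 markers of the other lists. Of these, edgeR and limma-voom tested 13 neuronal, 4 glial, 12 endothelial, 6 erythroid and 1 muscle marker. Without control replicate 1 the log2 fold changes were 0.64 for *Elavl3*, −0.95 for *Gap43*, −2.19 for *Foxd3* and −0.43 for *Hbb-bh1*. With all 4 libraries they were 0.49, −0.54, −1.61 and −0.15. The 14 neuronal markers tested had 5 genes at an unadjusted p under 0.05 from limma and a median of 0.18 (0.34 without mutant replicate 1), with sums of 1113 and 1188 CPM in control versus 1251 and 1446 CPM in mutant libraries and *Tubb3* at 189 and 217 CPM against 202 and 255 CPM. The 5 glial and Schwann precursor markers tested (8 in the list) had 1 higher and 2 lower at that threshold and a median of −0.20 (−0.52 without mutant replicate 1 and −0.08 without mutant replicate 2), with sums of 105 and 151 CPM against 115 and 158 CPM and *Fabp7* at 69.0 and 113 CPM against 83.4 and 122 CPM, and *Cdh19* was at 0 in at least 1 library. *Sox10*, a factor of crest cells and glia, was at 9.71 and 7.99 CPM against 2.08 and 3.28 CPM with an adjusted p of 0.0926 from limma (log2 fold change −1.44), and *Foxd3* was at 3.07 and 7.99 CPM against 1.66 and 0.468 CPM (6 and 18 reads against 4 and 1), not called either (−1.61, adjusted p = 0.178). The 15 endothelial markers had 0 at that threshold, a median of −0.08 with no fixed sign (−0.18 without mutant replicate 1, 0.04 without mutant replicate 2 and 0.03 without control replicate 2), sums of 262 and 281 CPM against 271 and 256 CPM, and *Kdr* at 54.2 and 48.4 CPM against 52.3 and 44.5 CPM. The 6 erythroid markers tested (10 in the list) had 0, a median of −0.16 (−0.39 without control replicate 1, −0.03 without control replicate 2 and −0.09 without mutant replicate 1), sums of 7026 and 8487 CPM against 6706 and 7199 CPM, and *Hbb-y* at 4045 and 4680.4 CPM against 3702 and 4048 CPM. The 5 muscle markers tested (9 in the list) had 1, a median of −0.08 (−0.12 without mutant replicate 1 and −0.03 without mutant replicate 2 or control replicate 2), sums of 34.8 and 45.7 CPM against 31.6 and 33.2 CPM, and *Pax7* at 26.1 and 36.8 CPM against 21.6 and 22.0 CPM.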

How the data were processed

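RNA-Seq was performed by the authors with QuantSeq 3′ libraries, and the submitters' processing notes name STAR, featureCounts 1.6.4, DESeq2 and mm10. The authors deposited CPM values for 13577 genes in 4 libraries. Reads were recovered from the step between values of each library, and 99.921% of 54308 values were whole reads within a tolerance of 0.02 reads. The other 43 values lie in 22 genes, none a member.

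Since CPM are not counts, the main test was limma 3.58.1 (R 4.3.3) on log2(CPM + 1) for 12462 genes with a mean above 1 CPM, with a trend of the variance on the mean, and p-values were adjusted over all of them by Benjamini and Hochberg. On this scale the change of low genes is understated. Alternatives were other pseudocounts, filters and scalings, a replicate block, omission of each library, and edgeR 4.0.16, DESeq2 1.42.0 and limma-voom on recovered reads, which called 133, 39 and 126 genes. A filter on low reads left edgeR and limma-voom with 10168 genes, 39 of them members. The tests were tested on simulated data, where in 1 data set all but DESeq2 let through more false calls than the nominal share, so calls close to the threshold are uncertain. The smallest two-sided p of an exact permutation test at n = 2 per group is 0.333.

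The members and the lists were chosen with earlier results of these data known. Members are named if called in any test on all 4 libraries, if their unadjusted p was under 0.05, or if they were the 2 most abundant or the most different of their family with at least 5 CPM. *Sema3a*, *Plxna3*, *Plxna4*, *Plxnc1*, *Plxnd1*, *Plxnb2*, *Epha2*, *Epha5*, *Ephb2*, *Ephb4* and *Ephb6*, and the list genes *Sox10*, *Foxd3*, *Elavl3*, *Gap43*, *Hbb-bh1*, *Grb7* and *Grip1*, were added after their values had been seen. Not every marker called is named. Tables and figures were made with Python 3.11.15, pandas 2.3.3, scipy 1.17.1 and matplotlib 3.10.9.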

Additional observations from a re-analysis of the deposited data

How the results depend on the processing

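The count of 2 members called was 2 with a pseudocount of 5, without a filter, with TMM, RLE or upper-quartile scaling, with edgeR and with limma-voom. It was 0 with a pseudocount of 0.1, with DESeq2 and without the trend, where no gene of the table was called, and 1 (*Epha7*) with genes above 5 CPM or without the 22 genes with values that are not whole reads. With each library left out in turn it ran from 0 to 3, and the library that remains in a group is then assumed to vary like the others. The causes were not tested.

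The 9 members with an unadjusted p under 0.05 were 5 with DESeq2 and from 6 to 13 with a library left out. The median log2 fold change of the members ran from −0.07 to 0.03 over all alternatives and from −0.02 to 0.02 with a library left out, and its sign is not fixed. The 2 transducer and guidance genes called were 1 with DESeq2, 0 without the trend, 4 with a replicate block and from 1 to 4 with a library left out.

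With the replicate block 2 members and 229 genes of all, against 112, were called, as were the glial markers *Sox10* and *Foxd3* and the transducers *Grb7* and *Grip1*. Libraries with the same replicate number deviated together with a correlation of only 0.067 over 12462 genes. This value does not decide whether they share a litter, a day or a batch.

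Of 306 values of the 18 members named by rule under the alternatives, 287 kept direction and side of the threshold and 5 changed sign. These were *Efnb2* without control replicate 2 (0.11) or mutant replicate 2 (0.03), *Ephb1* (−0.043) and *Sema5a* (−0.12) without control replicate 2, and *Sema4c* (−0.085) without mutant replicate 2, none called. Of the 27 other members tested, 14 changed sign as well, each with some library left out. With each library left out the 4 named by rule ran from −0.27 to 0.11, −0.043 to 0.66, −0.12 to 0.41 and −0.085 to 0.27. Depth limits members near 1 CPM, which rest on about 2 reads a library.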
